A study of Mus musculus with 3 samples.

Results

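Axon guidance ligands and receptors are described here across 3 two-colour arrays of embryonic mouse cortex. Genes were taken by the symbol that the array's annotation gives them: semaphorins (Sema), plexins (Plxn), neuropilins (Nrp), Eph receptors and ephrins (Epha, Ephb, Efna, Efnb), Slits, Robos, netrins (Ntn), Unc5 receptors and Dcc. This gave 65 genes on 100 probes, of 19918 genes on the array, and they comprise 33 ligand and 32 receptor genes. The Slitrk and Ntng genes, Unc50, Unc5cl, Slitl2 and the bare symbol Nrp were left out. Within these families genes were taken by name, with no filter on measured values. The genes were, however, chosen with earlier results of these data known. Each array set RNA of cortices labelled Snf2l-Ex6DEL, in which exon 6 of Snf2l (now Smarca1, an ATPase of the ISWI chromatin remodellers) is deleted, against RNA of wild-type cortices. Both genotypes were of the 129Sv background, and the tissue was taken at E15.5, where E stands for days of embryonic development. Replicates 1 and 2 held the same pair of RNAs with Cy3 and Cy5 exchanged (pair 1), and replicate 3 held a second pair (pair 2), so that n = 2 pairs. How many embryos made up a sample, their litters, and in which cells the exon was deleted are not stated in the labels. Because each value is a ratio within an array, no gene has a level here, the presence of cortical markers could not be checked, and no gene's level is set against another's.

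Guidance cues steer growing axons and migrating neurons by binding receptors on the growth cone. Class 3 semaphorins are secreted and act through neuropilins, which bind the cue, and plexins of the A group, which signal. Ephrins and Eph receptors are membrane proteins that signal on contact, Slits repel through Robo receptors, and netrin-1 attracts through Dcc and repels through Unc5 receptors. In the embryonic cortex these systems are known for guiding callosal, corticofugal and thalamocortical axons. Many of the same genes also act in blood vessels, meninges and mesenchyme.

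Values are log2 ratios, and those above 0 are read as higher in the mutant. That direction is likely but not stated, since the labels put wild type in the first channel and the mutant in the second on each array. With the opposite numerator every sign would turn. The array medians over 38880 probes were 0.009, 0 and 0.001 and the SDs 1.253, 1.315 and 1.263. With so few arrays precision is limited by their number. Many spots shared a single value per array, which equals the median and is read here as no measurement. Such spots were counted as having no sign. They were still averaged in, as values near 0, in the means, SEs and p-values, except in an alternative without them. The shared value was held by 2, 6 and 9 of the 100 guidance probes on replicates 1 to 3 (2%, 6% and 9%), against 11.7%, 16.6% and 21.9% of all probes.

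No guidance gene differed between the genotypes in limma at an adjusted p of 0.05 (0 of 65, and 0 of 28341 features in all, which is 0% called). The lowest adjusted p among the 65 was 0.852. At an unadjusted p of 0.05 limma gave 2, Slit3 and Plxna1, or 3.08% against 2.52% of all features. A ratio at least 1.5-fold from 1, in 1 direction on each array, was found for 3 genes. Plxna1 was above 0 and Slit3 and Sema3b below it. That is 4.62% of the 65 against 2.85% of all features (1.12% above 0 and 1.73% below), a share near the background. Where no probe was at the shared value it was 2 of 57 (3.51%) against 4.48%. With pairs rather than arrays as replicates there were 2.08 degrees of freedom, so the ratios below are descriptions of these pairs.

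A single sign on all 3 arrays was found for 24 of the 65 genes, 12 above 0 and 12 below it, which is 36.9% against 18.5% of all features (8.66% above 0 and 9.8% below). The gap was narrower where unmeasured spots played no part. Among genes with no probe at the shared value the share was 20 of 57 (35.1%) against 27.6% of features of the same kind. By role, 17 of 32 receptors had a single sign and 7 of 33 ligands. The median over the 65 genes was 0.036, 0.27 and -0.064 on replicates 1 to 3 and -0.0078 over the mean of the pairs, where all features had -0.027. Between the dye-swapped arrays, the median absolute difference was 0.50 for guidance genes and 0.64 for all features. Between the pairs it was 0.70 and 0.76.

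**Figure D1:**
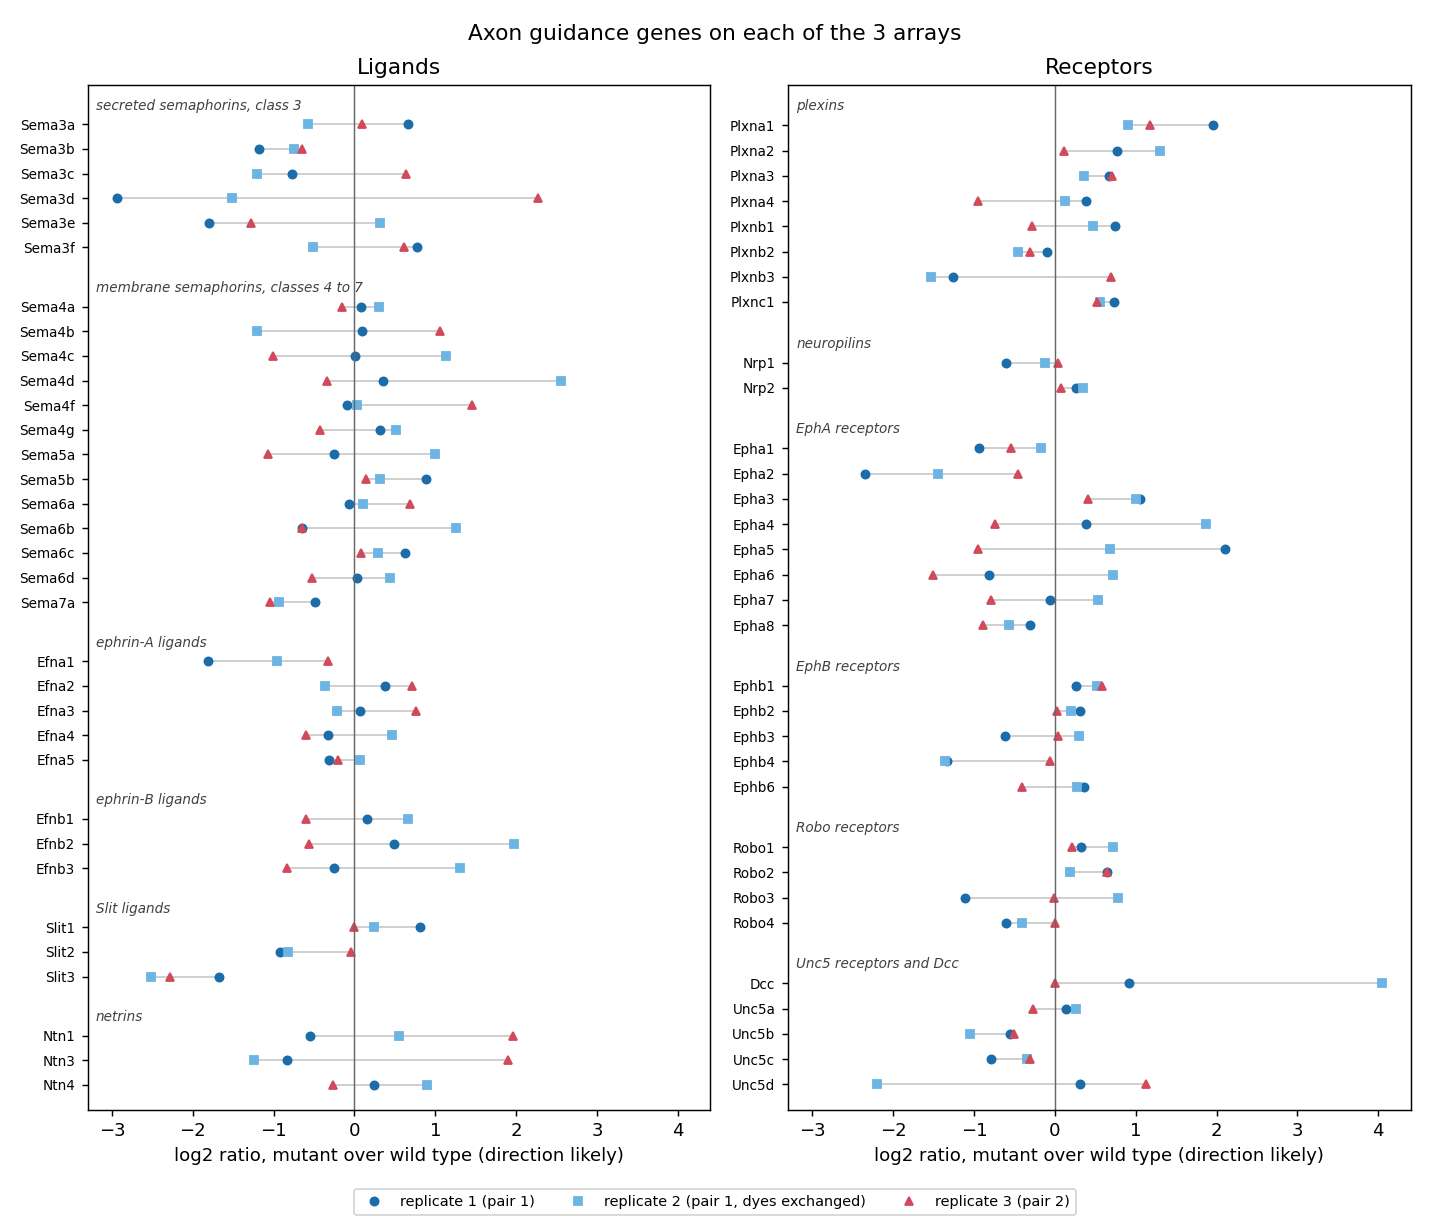
Log2 ratio (x axis) of each of the 65 genes (y axis), ligands on the left and receptors on the right, with 1 symbol per array and a grey line over the range; there are no error bars. Slit3 lies below -1.6 and Plxna1 above 0.8 on each array, while Sema3d runs from -2.94 to 2.27; the 0.001 of Dcc on replicate 3 is no measurement.

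Plexins, the signalling receptors of semaphorins, included the guidance gene with the highest mean over the pairs, Plxna1. That rank rests on an unmeasured spot of Dcc. Dcc had a mean of 1.24 with its shared value of 0.001 counted as pair 2, and 2.48 in pair 1 alone. Plxna1 read 1.96, 0.90 and 1.17 on replicates 1 to 3. All 3 values lay above 1.5-fold, and the dye-swapped arrays differed by 1.06, more than the pairs did (0.26). Over the pairs it averaged 1.30 ± 0.23 (moderated SE from limma, n = 2, adjusted p = 0.852), which corresponds to 2.46-fold.

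Plxna3 read 0.68, 0.36 and 0.70, with a mean of 0.61 ± 0.22 (moderated SE). Plxna2 read 0.77, 1.31 and 0.11, and Plxnc1, the receptor of Sema7a, read 0.74, 0.55 and 0.52. These were above 0 on each array, so that 4 of 8 plexins were, against 8.66% of all features and 13% of those with no probe at the shared value. Plxna4 read 0.38, 0.12 and -0.94 and thus was below 0 in pair 2 only. A pair of further probes, which only a synonym ties to it, read 0.91 and 0.92 in pair 2. Plxnb1, a receptor of Sema4d, did likewise at 0.74, 0.47 and -0.29.

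The B plexins did not read alike. Plxnb1 was on the side of the A plexins in pair 1, as given above. Plxnb2, which is made by cortical progenitors, read -0.10, -0.46 and -0.31, below 0 throughout (mean -0.29 ± 0.22, moderated SE). Plxnb3 read -1.25, -1.53 and 0.69, a gap of 2.08 between the pairs. Medians over the 8 plexins were 0.71, 0.41 and 0.32. The 2 probes of Plxnc1 stood at 1.12 and -0.007 on replicate 2, and those of Plxna2 were above 0 on all arrays. None of the plexins passed the test, each having an adjusted p of 0.852 or more.

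Promoter sequence is shown for Plxna2, Plxna3 and Plxnc1, which are 3 of the 4 plexins above 0 on each array (the other is Plxna1), and for Slit3, the guidance gene with the lowest mean, because chromatin remodellers such as Smarca1 act on nucleosomes at promoters among other places. Sequences are from RefSeq, build GRCm38.p6, and cover the 250 bases before the annotated start, 5′ to 3′ on the gene's strand. Capitals mark GC boxes, the letters GGGCGG on either strand, a motif bound by Sp1. Plxna2 is at chr1:194619579-194619828 on the plus strand, Plxna3 at chrX:74328816-74329065 on the plus strand, Plxnc1 at chr10:94944846-94945095 on the minus strand and Slit3 at chr11:35121206-35121455 on the plus strand.
Plxna2: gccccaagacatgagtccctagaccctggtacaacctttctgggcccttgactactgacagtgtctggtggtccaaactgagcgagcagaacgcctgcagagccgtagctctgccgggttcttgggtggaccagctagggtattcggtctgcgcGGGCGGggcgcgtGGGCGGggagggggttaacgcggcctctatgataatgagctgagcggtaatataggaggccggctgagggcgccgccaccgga
Plxna3: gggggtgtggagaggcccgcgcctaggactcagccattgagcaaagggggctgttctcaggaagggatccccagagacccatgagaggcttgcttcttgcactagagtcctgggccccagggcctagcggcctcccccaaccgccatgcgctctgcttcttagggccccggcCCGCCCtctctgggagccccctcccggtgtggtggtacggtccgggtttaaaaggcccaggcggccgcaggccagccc
Plxnc1: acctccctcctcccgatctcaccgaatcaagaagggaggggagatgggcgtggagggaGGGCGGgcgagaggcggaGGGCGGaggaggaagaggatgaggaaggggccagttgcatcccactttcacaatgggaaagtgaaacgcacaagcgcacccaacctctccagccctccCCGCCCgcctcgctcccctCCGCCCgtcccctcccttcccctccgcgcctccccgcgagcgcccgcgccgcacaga
Slit3: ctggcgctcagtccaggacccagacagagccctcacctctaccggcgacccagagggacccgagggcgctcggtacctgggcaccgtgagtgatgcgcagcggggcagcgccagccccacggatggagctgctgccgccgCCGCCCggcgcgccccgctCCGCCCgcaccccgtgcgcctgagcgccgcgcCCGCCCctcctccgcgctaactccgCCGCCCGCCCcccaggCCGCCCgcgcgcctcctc
Counting overlapping matches, GC boxes numbered 2 in Plxna2, 1 in Plxna3, 4 in Plxnc1 and 6 in Slit3. CpG dinucleotides numbered 18, 12, 22 and 35 in that order. Of 71 promoters listed for 55 of the 65 genes, 70.4% held a GC box, against 32.7% of all 32851 promoters of that length. A TATAAA on either strand was in 2.82% and 12.4%, and CCAAT in 26.8% and 33.8%. The median CpG count was 15 in promoters of guidance genes and 6 in all. The 3 plexins and Slit3, which lay on opposite sides of 0, thus all held GC boxes, with neither CCAAT nor TATAAA in any of these windows.

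Slit ligands repel axons through Robo receptors, and the 3 Slits did not read alike. Slit3 read -1.67, -2.52 and -2.28. It was the lowest guidance gene on replicates 2 and 3, and its pairs differed by 0.18 where the dye-swapped arrays differed by 0.85. Over the pairs it averaged -2.18 ± 0.22 (moderated SE from limma, n = 2, adjusted p = 0.852), or 4.55-fold lower, and it rests on 1 probe.

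Slit2, which repels callosal and corticofugal axons from the midline, read -0.92, -0.82 and -0.046 with both probes below 0 in pair 1. Slit1, which is made by cortical neurons, read 0.81, 0.24 and -0.006. Both values were thus near 0 in pair 2, and on opposite sides of 0 in pair 1. For Slit2 the value in pair 2 averaged probes of opposite sign, at 0.335 and -0.428. Robo1 read 0.32, 0.71 and 0.21 and Robo2 0.65, 0.19 and 0.64. These main Slit receptors of cortical axons were above 0 on each array, Robo2 with both of its probes. Their means were 0.37 ± 0.24 and 0.53 ± 0.23 (moderated SE).

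Robo3, known from commissural axons of the hindbrain and spinal cord, read -1.11, 0.79 and -0.008. Its dye-swapped arrays opposed each other. Robo4, a receptor of endothelial cells, read -0.61, -0.41 and 0.0067, but 5 of the 9 values behind these were at the shared value. Its only probe with a measurement on every array read -1.24, -1.22 and 0.018.

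Secreted class 3 semaphorins, which act through neuropilins, had medians of -0.97, -0.66 and 0.35. On both arrays of pair 1, 0 of the 6 genes were above 0 and 3 below it, where 21.8% and 22.9% of all features were. Sema3b averaged -1.18, -0.75 and -0.65, past 1.5-fold on each array. Its 2 probes opposed each other, however. One read -3.28, -2.32 and -1.31, and the other read 0.93, 0.81 and the shared value. The mean of -0.81 ± 0.24 (limma's moderated SE, adjusted p = 0.852) therefore stands for no single direction.

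Sema3d had the widest gap between the pairs, at -2.94, -1.51 and 2.27. Its only probe measured on all arrays read -3.29, -3.03 and 4.54. Sema3c, a cue for callosal axons, read -0.77, -1.21 and 0.63. Both were thus below 0 in pair 1 and above it in pair 2. Sema3a, the archetypal repellent of cortical axons, read 0.66, -0.57 and 0.091. Sema3f read 0.78, -0.51 and 0.61, and Sema3e -1.80, 0.32 and -1.28. In these 3, replicate 2 lay on the other side of 0 from replicates 1 and 3, which share a dye orientation. A synonym probe of Sema3e read -0.51, -0.37 and 3.02, so that it opposed the value above on replicates 2 and 3.

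The neuropilins, which bind these cues, were closer to 0. Nrp1, the Sema3a receptor subunit, read -0.60, -0.12 and 0.033. Nrp2, which binds Sema3f, read 0.27, 0.35 and 0.076, above 0 on each array, with 3 of its 9 probe values at the shared value. Of its synonym probes one read 0.27, 0.44 and 0.78 and the other -1.35, 0.13 and -1.39. Neither mean exceeded its moderated SE (-0.16 ± 0.25 and 0.19 ± 0.23).

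Membrane semaphorins of classes 4 to 7 had medians of 0.035, 0.31 and -0.34 over 13 genes. Sema7a, a lipid-anchored semaphorin that promotes axon growth, read -0.49, -0.94 and -1.04, and its receptor Plxnc1 was above 0 as given above. Sema7a's mean was -0.88 ± 0.24 (moderated SE). On replicate 2 a single probe carried its value, -1.88, and the other read 0.001. Sema5b and Sema6c averaged above 0 on each array, at 0.89, 0.31 and 0.14 and at 0.62, 0.29 and 0.076. No single probe of Sema6c was above 0 on every array. Its probes spanned -0.087 to 1.62 on replicate 1 and -0.197 to 0.944 on replicate 2.

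The other 10 membrane semaphorins had values on both sides of 0. Sema4d, a ligand of Plxnb1, read 0.36, 2.55 and -0.34, with a dye-swap difference of 2.19. Sema4f had the highest mean of this group, and pair 2 alone carried it, at -0.098, 0.026 and 1.46. Replicate 2 was the highest of the 3 arrays in 7 of the 13 genes, as it was in 25 of all 65 (38.5%) and in 32% of all features. For example, Sema6b read -0.65, 1.26 and -0.65, Sema5a -0.26, 0.99 and -1.07 and Sema4c 0.008, 1.14 and -1.01. Sema4b stood opposite, at 0.096, -1.21 and 1.05. Sema6d read 0.035, 0.44 and -0.52, and Sema6a, a ligand of A plexins, -0.063, 0.11 and 0.68. Sema4a and Sema4g stayed within 0.52 of 0 on each array.

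EphA receptors bind mainly A ephrins, and the 8 genes had medians of -0.18, 0.61 and -0.76. Epha2, known from epithelia and vessels, read -2.35, -1.44 and -0.46. It had the lowest mean of its family, -1.18 ± 0.54 (limma's moderated SE, adjusted p = 0.852), and the pairs differed by 1.44. Its ligand Efna1, also known from vessels, read -1.81, -0.96 and -0.33. Both were thus farther from 0 in pair 1 than in pair 2. Epha8 read -0.31, -0.56 and -0.89.

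Epha3 read 1.06, 1.01 and 0.41, the only EphA gene above 0 on each array, with a mean of 0.72 ± 0.30 (moderated SE). On replicate 3 its probes stood at 1.01 and -0.18. A further probe, which only a synonym ties to this gene, read -3.25 there, and with it the mean became -0.14. Epha5, a receptor of cortical and thalamic axons, read 2.10, 0.68 and -0.96. Epha4, which acts in corticospinal guidance, read 0.38, 1.87 and -0.74. Both were above 0 in pair 1 and below it in pair 2. Epha5 also had a probe tied to it by a synonym alone, which read 1.721, 1.65 and 0.094 and so was not below 0 in pair 2. Epha7 and Epha6 read -0.06, 0.53 and -0.78 and -0.82, 0.72 and -1.50, with replicate 2 on the other side of 0 from both other arrays. Epha1 averaged -0.94, -0.17 and -0.54 over 3 probes that spanned -3.66 to 0.72 on replicate 1.

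Of the EphB receptors, which bind mainly B ephrins, Ephb1 and Ephb2 were above 0 on each array. Ephb1, known from retinal axon crossing, read 0.27, 0.52 and 0.58 (mean 0.49 ± 0.22, moderated SE) and Ephb2 0.31, 0.20 and 0.030. Ephb4, a receptor of venous endothelium, read -1.34, -1.36 and -0.064, with a dye-swap difference of 0.021 and a difference of 1.29 between the pairs. Ephb6, which lacks kinase activity, read 0.36, 0.27 and -0.41, and Ephb3 -0.61, 0.30 and 0.034.

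All 3 B ephrins were highest on replicate 2 and below 0 on replicate 3. Efnb2, the partner of Ephb4 in vessels and a cue for neurons, read 0.49, 1.97 and -0.56. Efnb3, a midline cue for corticospinal axons, read -0.25, 1.30 and -0.84, and the X-linked Efnb1 0.16, 0.66 and -0.60. Their dye-swapped arrays differed by 0.50 to 1.55, more than the distance of each mean from 0 (-0.094 for Efnb1, 0.34 for Efnb2 and -0.16 for Efnb3). Among the other A ephrins, Efna2 read 0.38, -0.36 and 0.71, and Efna3 0.069, -0.22 and 0.76. Efna4 read -0.33, 0.47 and -0.60, and Efna5, a graded cue for thalamocortical axons, -0.31, 0.064 and -0.20. The 2 probes of Efna5 opposed each other on replicates 1 and 2, and those of Efna4 on replicate 3.

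Netrins and Dcc differed widely between arrays. Ntn1, the attractant of Dcc-bearing axons, read -0.55, 0.55 and 1.96. Ntn3 read -0.83, -1.25 and 1.91, and Ntn4, a netrin of basement membranes, 0.24, 0.89 and -0.27. Ntn1 and Ntn3 were above 0 by over 1.5-fold on replicate 3 only, and both probes of each were above 0 there, at 2.81 and 1.10 for Ntn1 and 3.65 and 0.16 for Ntn3. Dcc, the attractive netrin receptor, read 0.92 and 4.05 on the dye-swapped arrays, a difference of 3.14. On replicate 3 it was at the shared value, so its probe has no measurement in pair 2. A further probe, which only a synonym ties to Dcc, read 1.17, 0.38 and -0.17.

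Unc5 receptors mediate repulsion by netrins. Unc5b, which is also made by endothelial cells, read -0.55, -1.05 and -0.51, below 0 on each array (mean -0.65 ± 0.24, moderated SE), with probes of opposite sign on replicate 3. Unc5c averaged -0.78, -0.34 and -0.30, but its 3 probes spanned -2.34 to 1.76 on replicate 2. Unc5d, a receptor of layer IV neurons and multipolar cells, read 0.31, -2.20 and 1.12, and Unc5a 0.14, 0.26 and -0.27. A probe that only a synonym ties to Unc5d read 0.707, 0.07 and 0.037. The probes of Unc5a opposed each other on replicate 3, at -1.6 and 1.065, and the former was at the shared value on replicates 1 and 2. Its only probe measured on all arrays read 0.268, 0.512 and 1.065.

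**Figure D2:**
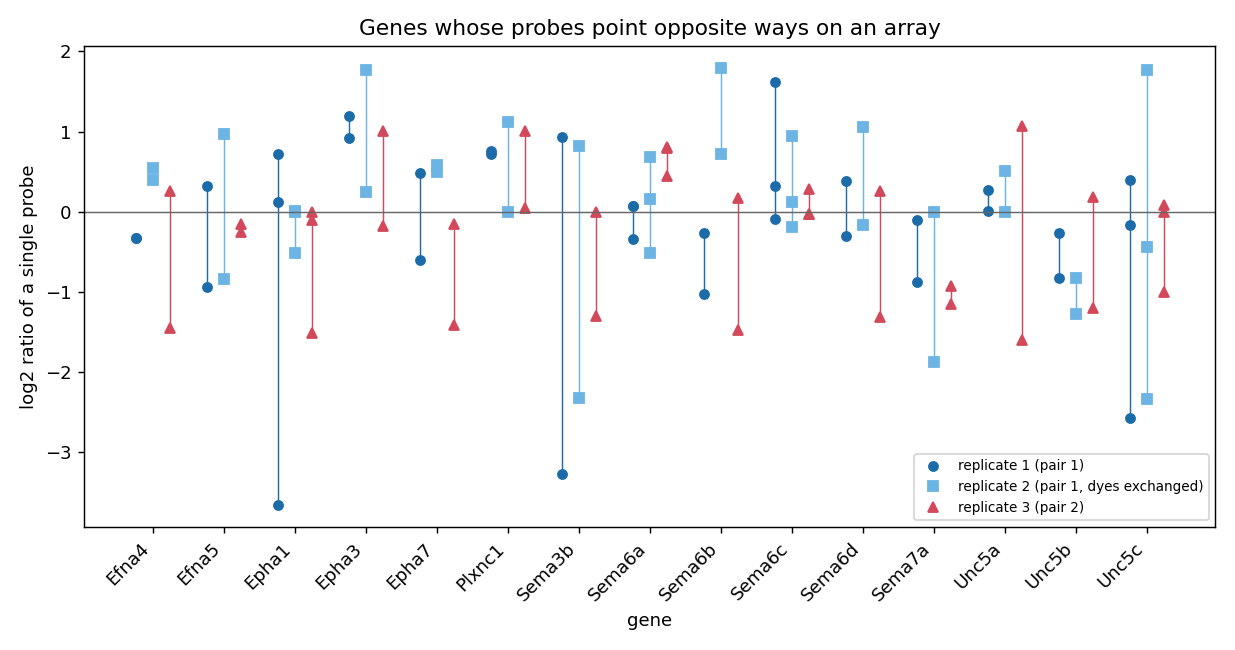
Log2 ratio (y axis) of each single probe of the 15 guidance genes (x axis) that had measured probes of opposite sign, more than 1 apart on the log2 scale, on at least 1 array. Symbols are probes, lines join the probes of a gene on an array; the probes of Sema3b lie at -3.28 and 0.93 on replicate 1, and those of Unc5c at -2.34 to 1.76 on replicate 2.

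Probes of the same gene often pointed apart. Of the 28 guidance genes with more than 1 probe, 15 had measured probes of opposite sign that were more than 1 apart on at least 1 array. The other 37 genes, Slit3 and Plxna1 among them, rest on 1 probe, whose agreement with a second cannot be seen. Where probes lie within transcripts is not stated in the annotation used, so differences between transcript forms and between probes cannot be told apart.

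Pair 1 and pair 2 gave different ratios for most guidance genes. Across the 65 genes, which share the arrays and are not independent, replicate 1 correlated with replicate 2 at a Pearson's r of 0.52, and their mean correlated with replicate 3 at -0.068. Over all 28341 features these were 0.24 and -0.066. Pair 1 ratios had a single sign on both arrays in 46 of 65 genes (70.8%), against 44.7% of all features. Of these 28 were above 0 and 18 below, where 21.8% and 22.9% of all features were. The gap was narrower without unmeasured spots. Among genes with no probe at the shared value it was 38 of 57 (66.7%) against 58.4% of such features, and r between replicates 1 and 2 was 0.47 against 0.35. The difference between the dye-swapped arrays, halved, contains what goes with the dye, and across the 65 genes it correlated with replicate 3 at r = 0.26 (0.24 without the 2 genes farthest from the median). Over all features r was 0.071. With no probe at the shared value it was 0.37 for the 57 genes and 0.14 for such features. In a fit of the 3 arrays with a dye term, 0 of the 65 genes had a dye coefficient at limma's adjusted p of 0.05 (lowest adjusted p = 0.751), as had 0% of all features. The genotype difference in that fit was -2.24 for Slit3 and 1.23 for Plxna1.

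**Figure D3:**
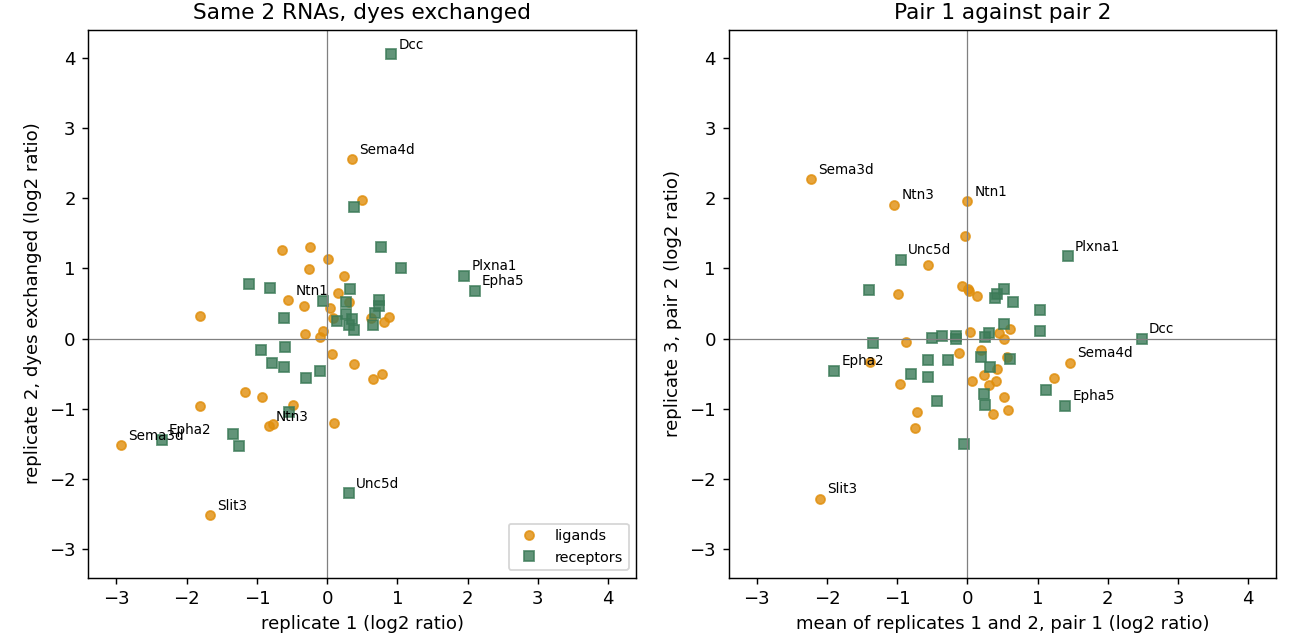
Log2 ratios of the 65 genes, 1 point per gene, with replicate 2 against replicate 1 on the left and replicate 3 against the mean of replicates 1 and 2 on the right. The left points run along the diagonal (r = 0.52), with Dcc and Unc5d off it; on the right they do not (r = -0.068), and Slit3 and Plxna1 keep their side of 0.

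Medians of cell type markers lay farther from 0 in pair 1 than in pair 2, though single markers could lie far from 0 in both. Markers of meninges and fibroblasts had medians of -3.23, -3.48 and 0.52 on replicates 1 to 3, with 10 of 10 below 0 on both arrays of pair 1. Those of cartilage, bone, muscle and skin had medians of -4.76, -4.51 and 0.71 (12 of 14 below 0 on both), and those of endothelial cells and pericytes -0.89, -1.11 and 0.23 (7 of 10). Microglial markers stood at -1.27, -0.33 and 0.014, red cell markers at -1.50, -2.98 and 1.07 and choroid plexus markers at -0.77, -1.23 and 0.29. Markers of cortical neurons had medians of 2.00, 1.58 and 0.015 (8 of 11 above 0 on both) and progenitor markers 0.49, 0.79 and -0.46.

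Guidance genes known from vessels, mesenchyme or basement membranes lay on both sides of 0 in pair 1. Epha2, Efna1, Ephb4, Robo4, Unc5b, Slit2, Sema3c and Sema3d were below it on both arrays, the side of the lists of those tissues, and Efnb2 and Ntn4 above it. They were picked after their values were seen and may not be all such genes, so their numbers on each side carry no weight. Of all 65 guidance genes 18 were below 0 on both arrays and 28 above, where 22.9% and 21.8% of all features were. Slit3 was also below 0 in pair 1, and Plxna1 was above it, the side of the neuronal markers. In pair 2 Slit3 read -2.28, where the meningeal and skeletal medians were 0.52 and 0.71. Of those lists 8 of 10 and 9 of 14 genes were above 0 on replicate 3. Ptgds of the first list read -2.41 there and Col9a1 of the second -1.44, and both were below 0 on each array. Plxna1 read 1.17 in pair 2, where the neuronal median was 0.015. The part of other cell types in these values was not tested. In bulk tissue, fewer cells of a type and less RNA per cell cannot be told apart.

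**Figure D4:**
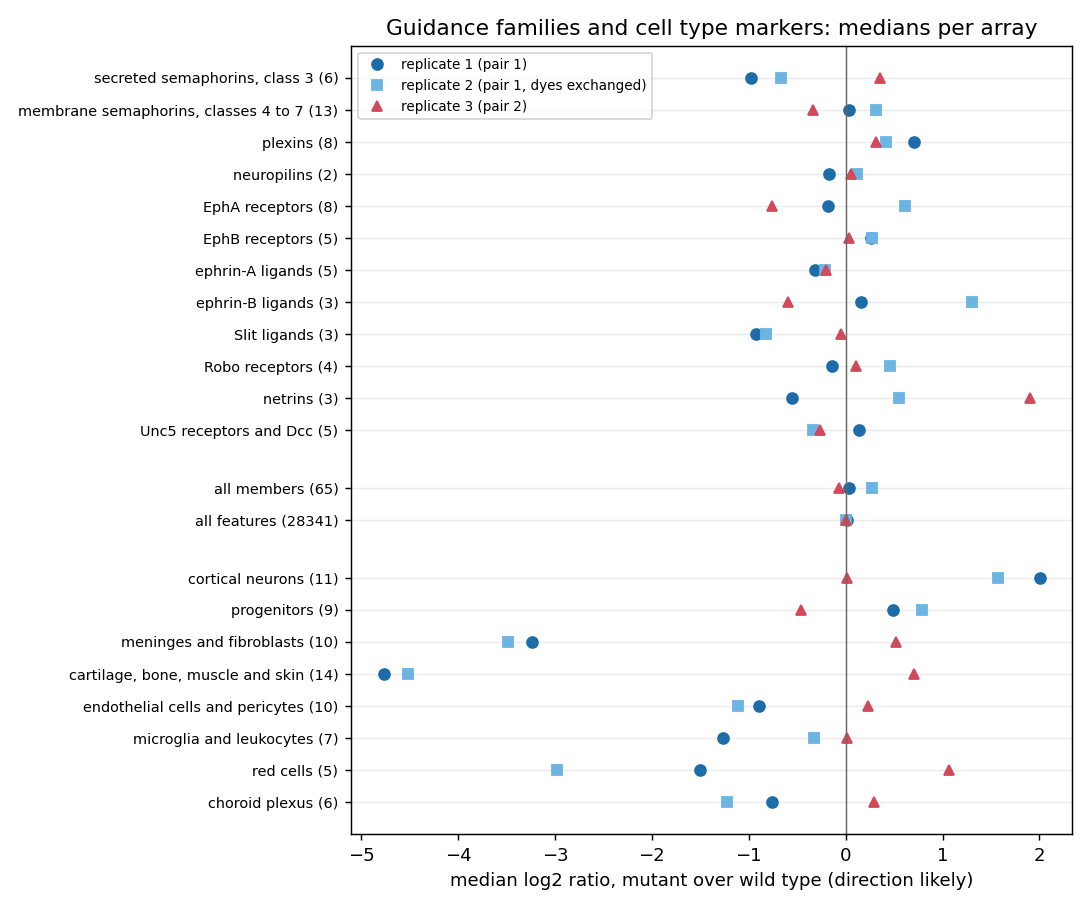
Median log2 ratio (x axis) per array over each guidance family, over all 65 genes, over all features, and over markers of 8 cell types, with the number of genes in brackets (y axis). The medians of meningeal and skeletal markers lie below -3 on both arrays of pair 1 and above 0 on replicate 3, and the plexin medians lie at 0.32 to 0.71.

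Other genes of guidance pathways were taken from a list of co-receptors, further cues and cytoplasmic effectors, of which 85 of 89 genes were measured. None passed limma's test. On all 3 arrays 13 were above 0 and 12 below it, shares of 15.3% and 14.1% against 8.66% and 9.8% of all features. Among the 67 with no probe at the shared value the shares were 16.4% and 14.9%, near the 13% and 14.6% of features of that kind. Those past 1.5-fold on each array numbered 2 (2.35%), against 2.85% of all features. Draxin, a secreted cue that binds Dcc and netrins, was the one above 0, at 0.79, 1.25 and 1.06 (mean 1.04 ± 0.22, limma's moderated SE, adjusted p = 0.852). Plxdc1, a plexin-domain protein of endothelium, was the one below, at -0.62, -3.77 and -0.88. The medians were 0.27, 0.020 and -0.19 over 30 co-receptors and cues and 0.11, -0.090 and -0.015 over 55 effectors.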

How the data were processed

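The deposited values are log2 ratios of the 2 channels of each array, 1 column per array. The log2 scale and the centring by the authors were read from the values, since scanner, background correction, normalization, spot filter and numerator are not given in the sources used here. No spot intensities were used here, so dim spots could not be filtered.

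Of 38880 probes, 30457 had a gene symbol. Of the symbols, 12795 were current in RefSeq (GRCm38.p6, used for names and promoters), 8317 older ones were replaced by way of a synonym, and 364 stayed as given. Guidance genes were averaged over probes with their platform symbol only, spots at the shared value included. A further 11 probes, tied to 9 genes of these families by a synonym alone, were kept apart. Probes of other symbols were averaged after updating, giving 28341 features.

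Replicates 1 and 2 were averaged and tested with replicate 3 in limma 3.58.1 under R 4.3.3 (lmFit, eBayes, Benjamini-Hochberg over all features, threshold 0.05). On simulated data the procedure was required to recover large changes only at a spread far smaller than that of these arrays. That check therefore does not show its power here. P-values concern these pairs alone. Values after ± are limma's moderated SE.

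Genes with a value on every array were those past 1.5-fold on all arrays, the highest and lowest of each family, all members of families of 4 or fewer, those with disagreeing probes and the 5 widest gaps between the pairs in either direction. Other genes given with values were added after these were seen. The genes and lists were chosen with earlier results of these data known. Matplotlib 3.10.9 under Python 3.11.15 drew the figures.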

Additional observations from a re-analysis of the deposited data

How the results depend on the processing

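Alternatives covered centring, scaling, single probes, spots at the shared value, each array left out, arrays as independent, a dye term and robust empirical Bayes; merging probes by synonym, and the dye term for single genes and the median, were chosen after seeing the data. The pair as a random block was not run, because limma estimates no correlation from 3 arrays. No paired analysis was possible because each array already is a pair. The 0 calls, over all features and over guidance genes, held in every alternative with a test. At unadjusted p 0.05 there were 715 features and 2 guidance genes, and at 0.01 there were 44 and 1.

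The 3 guidance genes past 1.5-fold became 5 probes with every probe a feature, 4 to 15 with 1 array left out (15 without replicate 3), 1 at 2-fold and 24 without a fold threshold. With the sign of replicate 1, 2 or 3 turned they were 0, 2 and 5. For the 2 genes of the pathway list these counts were 9, 3 to 20 (20 without replicate 3), 0 and 25, and with signs turned 0, 0 and 6. Without replicate 3 only the dye-swapped arrays of pair 1 remain. A share of all features is given here only for the counts without a fold threshold, at 18.5%. The counts from the other alternatives therefore cannot be read as results about guidance genes. The median over guidance genes was -0.065 to 0.13 with 1 array left out. Of 260 values for the 24 genes with a single sign, 256 kept it. The choice of these genes fixed that outcome for arrays left out, the dye term and robust empirical Bayes. The count is therefore no measure of how stable the signs are. The exceptions were 1 probe each of Sema3b (0.44), Ephb2 (-0.11) and Unc5c (0.032), and Epha3 with synonym probes (-0.14). Slit3 ran from -2.40 to -1.97 and Plxna1 from 1.04 to 1.56, with adjusted p = 0.682 to 0.897 in limma.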
